A study of Mus musculus with 6 samples.

Results

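The proteasome genes of a mouse B progenitor leukemia were compared after 3 days of doxycycline (dox) and without it. Members were the protein-coding genes whose symbol begins with Psma, Psmb, Psmc, Psmd, Psme or Psmg and a digit, without the 3 immunoproteasome genes Psmb8, Psmb9 and Psmb10. This gave 46 of the 26286 genes in the table, of which 44 had enough counts to be tested. They comprise 31 subunits of the standard 26S particle, 7 assembly chaperones, 4 genes of alternative activators, 2 tissue-specific core subunits, and 2 genes that only share the name stem, Psmc3ip and Psme3ip1. The cap subunits Adrm1 and Sem1 lie outside the name stems and are not among the 31. RNA was sequenced from 3 libraries of mice given dox in their food for 3 days (GFPmid cells) and 3 libraries of untreated mice (0 days, GFPhigh cells). All 6 libraries came from 1 tri-transgenic leukemia, A024, whose cells were sorted from the bone marrow of Rag1 knockout mice. Dox restores Pax5 per the labels. As background from the published model, a tetracycline-regulated hairpin against Pax5, linked to GFP, is shut off by the drug. Dox, Pax5 and the sort gate changed together and cannot be told apart, and with a single leukemia the spread is that between mice carrying it.

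The proteasome is the protease that degrades proteins tagged with ubiquitin. Its barrel, the 20S core, is made of 2 outer alpha rings and 2 inner beta rings, and only 3 kinds of beta subunit cut peptide bonds. A 19S cap binds the barrel through a base, whose ATPases unfold the substrate, and carries a lid, which removes the ubiquitin chain. Dedicated chaperones build the rings and the base, and other activators can take the place of the cap. Growing and dividing cells, leukemias among them, rely on the particle, and its catalytic subunits are the targets of drugs used against blood cancers.

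Library totals lay between 14185203 and 15612435 counts. Levels are CPM, the count of a gene scaled to a common library size after correction by the trimmed mean of M values, and every fold change is dox over untreated. A gene was called at an adjusted p under 0.05 in edgeR's quasi-likelihood test over 12275 genes, with Benjamini-Hochberg adjustment. Pax5 (Entrez Gene 18507) measured 227, 281 and 231 CPM in dox replicates 1, 2 and 3, against 154, 93.5 and 105 CPM in untreated replicates 1, 2 and 3. Its log2 fold change was 1.07 (SE 0.17, edgeR adjusted p = 0.000695), and all dox libraries lay above all untreated ones. B progenitor markers such as Cd24a and Cd79a were abundant in both groups; of 8, 7 rose and Cd24a fell. The call of Ebf1 (edgeR adjusted p = 0.041) was lost without dox replicate 1 or 2 (0.059 and 0.114), without untreated replicate 1 or 3 (0.108 and 0.148), and with no low-count filter (0.0688). The summed level of 8 neutrophil markers was 497, 105 and 235 CPM in dox replicates 1, 2 and 3, against 82.6 to 107 CPM in untreated libraries. The summed level of 8 macrophage markers was 28.9 to 37.7 CPM in dox libraries, against 6.91 to 12.6 CPM in untreated ones. All 7 neutrophil markers tested and 7 of 8 macrophage markers rose (edgeR). Among all genes tested, 27.0% were called higher. The calls of 5 neutrophil markers were lost without single libraries: S100a9 without dox replicate 1 or untreated replicate 2 or 3 (edgeR adjusted p = 0.074 to 0.0793), Ngp without untreated replicate 2 (0.0536), Camp without any library but dox replicate 2 (0.0537 to 0.152), Mpo without dox replicate 1 or untreated replicate 1 or 2 (0.0786 to 0.116), and Retnlg without dox replicate 1 or 3 or untreated replicate 2 or 3 (0.0567 to 0.18). With limma voom, S100a9, Camp and Retnlg were not called (adjusted p = 0.0764, 0.155 and 0.103), nor was Camp with DESeq2 (0.0682). The summed level of 7 T and NK cell markers was 254, 138 and 218 CPM in dox libraries, against 50.8, 23.6 and 31.1 CPM in untreated ones. Nearly all of it was Cd2, which rose, with 251, 129 and 215 CPM in dox libraries, against 47.9, 19.99 and 26.3 CPM in untreated ones (2.66, SE 0.33, edgeR adjusted p = 0.000158), while Cd3e had 0 counts in every library. None of 3 erythroid markers tested was called, although Hba-a1 was called when dox replicate 1 was left out (edgeR adjusted p = 0.0127).

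Most proteasome genes were lower after dox, by a modest and similar amount. Of the 44 tested, 35 fell, 1 (Psme4) rose and 8 were not called. Of all genes tested, 53.6% were called in either direction. The members' counts stand against 26.6% of all genes that were called lower and 27.0% that were called higher. Among genes whose mean level was above the median of 35.1 CPM, which included 36 of the members, 33.5% were lower and 28.3% higher. The median log2 fold change of the 44 was −0.36, against 0.01 over all genes tested. Every dox library lay below every untreated library for 38 of the 44, against 31.0% of all genes, and above for 1, against 31.2%. Among the 31 standard subunits, 27 fell and none rose, while Psma3, Psmb1, Psmb6 and Psmd8 were not called (edgeR). No standard subunit was called at the 1.5-fold level: the 3 members that fell by at least 1.5-fold were Psmc3ip, Psmg1 and Psmg2, against 11.8% of all genes.

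**Figure D1:**
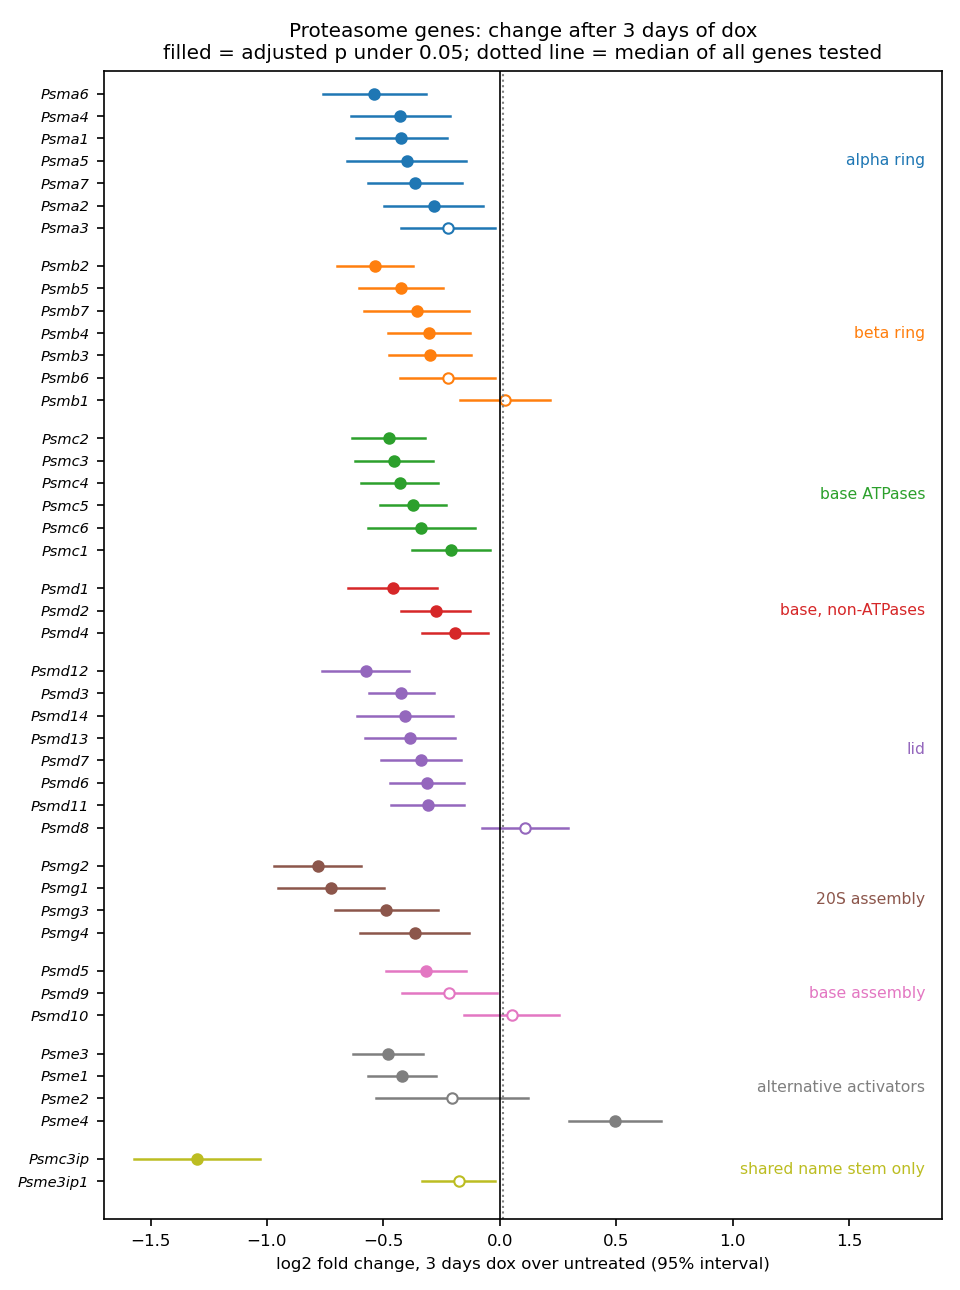
Log2 fold change (3 days dox over untreated, x axis) of the 44 tested members, grouped by subcomplex, with 95% intervals of the edgeR fit and filled points for an adjusted p under 0.05. Nearly all intervals lie left of 0, Psmc3ip is lowest at −1.30, and Psme4 alone lies wholly to the right at 0.50.

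The promoters of 5 members are shown because they span the range of responses: Psmd12, the standard subunit that fell most; Psmg1, a chaperone that fell further; Psme3, an activator that fell; Psmd8, which was not called; and Psme4, which rose. Each run holds the 150 bases before the annotated start, 5′ to 3′ on the gene's strand, from RefSeq on build GRCm38.p6, which is newer than the mm9 build of the counts. Capitals mark matches, on either strand, to 6 motifs: CACGTG (the E-box, bound by Myc), TGANNNNGC (antioxidant response element, bound by Nfe2l1 and Nfe2l2), CCAAT (the CCAAT box, bound by NF-Y), the ETS element CCGGAAG, TGACGTCA (cAMP response element) and AAGATGGCG (YY1 element).
Psmd12 (chr11:107479378-107479527, plus strand): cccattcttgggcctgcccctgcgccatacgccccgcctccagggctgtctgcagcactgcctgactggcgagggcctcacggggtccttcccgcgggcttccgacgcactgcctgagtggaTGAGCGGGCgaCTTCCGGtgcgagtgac
Psmg1 (chr16:95990961-95991110, minus strand): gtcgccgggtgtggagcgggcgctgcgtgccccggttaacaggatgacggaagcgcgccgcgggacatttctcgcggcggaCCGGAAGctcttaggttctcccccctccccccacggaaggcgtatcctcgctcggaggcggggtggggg
Psme3 (chr11:101316063-101316212, plus strand): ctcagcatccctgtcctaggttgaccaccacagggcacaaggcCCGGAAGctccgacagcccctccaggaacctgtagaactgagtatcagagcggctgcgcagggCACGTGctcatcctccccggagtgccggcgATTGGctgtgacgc
Psmd8 (chr7:29180674-29180823, minus strand): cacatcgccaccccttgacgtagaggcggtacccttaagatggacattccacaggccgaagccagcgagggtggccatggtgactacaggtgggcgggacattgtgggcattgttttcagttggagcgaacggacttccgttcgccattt
Psme4 (chr11:30771625-30771774, plus strand): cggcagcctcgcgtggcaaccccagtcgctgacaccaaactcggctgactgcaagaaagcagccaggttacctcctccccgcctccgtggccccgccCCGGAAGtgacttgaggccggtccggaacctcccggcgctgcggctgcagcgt
The ETS letters stand in 4 of these 5 windows, in Psmd12, Psmg1 and Psme3 as well as in Psme4, whose direction was the opposite. None of the 6 motifs occurs in the 150 bases shown for Psmd8. Its full 300-base window held TGANNNNGC, as did those of Psmg1 and Psme4. Over the full 300-base windows of the 37 tested members that matched the promoter table, 16 (43.2%) held CCGGAAG, against 21.9% of 8783 tested protein-coding genes and 8.86% of all 32851 windows in the table. TGANNNNGC stood in 22 of the 37 (59.5%), against 47.7% of the genes and 41.3% of the windows. CCAAT was found in 14 members (37.8%), against 43.6% of genes and 37.4% of windows, and CACGTG in 4 (Psma4, Psmd9, Psme3 and Psme3ip1; 10.8%), against 12.0% of genes and 7.15% of windows. AAGATGGCG occurred in 2 members, Psmb6 and Psmc5 (5.41%), against 3.96% of genes and 1.40% of windows, and TGACGTCA in none, against 3.69% of genes and 1.79% of windows. These counts describe letters, not bound sites.

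The alpha ring, whose subunits form the gate of the barrel, fell nearly as a whole. Of 7 subunits 6 fell and Psma3 was not called, with a median log2 fold change of −0.40. Psma6 measured 171, 149 and 199 CPM in dox libraries, against 256, 250.3 and 247 CPM in untreated libraries. It fell by 31.2%, more than any other subunit of the ring (log2 fold change −0.54, SE 0.10, edgeR adjusted p = 0.0015). Psma3 gave 30.7, 28.7 and 34.3 CPM in dox libraries, against 39.0, 35.2 and 35.1 CPM in untreated ones. The groups of Psma3 did not overlap, yet its change of −0.22 (SE 0.09) had an adjusted p of 0.0617 in edgeR, and of 0.0258 when dox replicate 3 was left out. The other 5, Psma1, Psma2, Psma4, Psma5 and Psma7, changed by −0.28 to −0.43 on the log2 scale. The call of Psma2 was lost without dox replicate 2 (edgeR adjusted p = 0.0699), untreated replicate 1 (0.0905) or untreated replicate 3 (0.0677), and that of Psma5 without untreated replicate 1 (0.0549).

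In the beta ring 5 of 7 subunits fell, and the median was −0.30. Psmb2 had the smallest p, with 86.5, 80.5 and 90.3 CPM in dox libraries, against 126, 129 and 118 CPM in untreated ones (−0.54, SE 0.07, edgeR adjusted p = 0.000271). The 3 catalytic subunits did not all pass. Psmb5, which carries the chymotrypsin-like activity, measured 69.2, 64.3 and 75.4 CPM in dox libraries, against 97.4, 89.0 and 93.8 CPM in untreated libraries. Psmb7, with the trypsin-like activity, measured 141, 118 and 154 CPM in dox libraries, against 189.8, 169 and 170.5 CPM in untreated ones. Psmb6, with the caspase-like activity, measured 110.5, 90.6 and 111 CPM in dox libraries, against 126, 114 and 124 CPM in untreated ones. Within each of the 3 genes all dox libraries lay below all untreated ones. Psmb5 fell by 25.4% (log2 fold change −0.42, SE 0.08, edgeR adjusted p = 0.00182) and Psmb7 by 21.9% (−0.36, SE 0.10, adjusted p = 0.0143, and 0.0521 without untreated replicate 1), while Psmb6 changed by −0.22 (SE 0.09, adjusted p = 0.0633).

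Psmb1, a non-catalytic beta subunit, was not called. It measured 202, 177 and 212 CPM in dox libraries, against 209, 192 and 182 CPM in untreated ones, and the groups overlapped. Its log2 fold change was 0.02, with a 95% interval from −0.17 to 0.21 that lies above the median of −0.36 of the 31 standard subunits. Set against the mean of the other 6 beta subunits per kilobase of gene length, Psmb1 stood at 1.74, 1.71 and 1.73 in dox libraries, against 1.35, 1.35 and 1.28 in untreated libraries. Psmb3 and Psmb4 changed by −0.30 each and were called.

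All 9 members of the 19S base fell. The 6 ATPase genes, Psmc1 to Psmc6, had a median of −0.40 on the log2 scale. Psmc2 measured 111, 107 and 119 CPM in dox libraries, against 148, 161 and 159 CPM in untreated libraries (−0.48, SE 0.07, edgeR adjusted p = 0.000439). Psmc1 changed least, with 109, 104 and 122 CPM in dox libraries, against 125, 129.9 and 132 CPM in untreated ones. Its call (−0.21, SE 0.07, adjusted p = 0.0391) held only when the library left out was dox replicate 3: it was lost without dox replicate 1 (0.105), dox replicate 2 (0.113), untreated replicate 1 (0.0519), untreated replicate 2 (0.103) and untreated replicate 3 (0.12), and under upper-quartile scaling (0.0569). The call of Psmc6 was lost without untreated replicate 1 (edgeR adjusted p = 0.0614).

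The base also holds Psmd1 and Psmd2, its scaffold subunits, and the ubiquitin receptor Psmd4. Psmd1 measured 175, 172 and 207 CPM in dox libraries, against 241, 265 and 256 CPM in untreated libraries (−0.46, SE 0.08, edgeR adjusted p = 0.00158). Psmd4 measured 123, 117 and 125 CPM in dox libraries, against 139, 136 and 143 CPM in untreated ones. Psmd4 fell by 12.4%, the smallest change of any called member (edgeR adjusted p = 0.0282), and its call was lost without dox replicate 1 (0.0625), dox replicate 2 (0.0807), untreated replicate 1 (0.0533), untreated replicate 2 (0.0582) or untreated replicate 3 (0.106). The interval of Psmd4, −0.33 to −0.05, also lies above the median of the standard subunits.

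In the lid 7 of the 8 members fell, with a median of −0.36. Sem1, a lid subunit outside the name stems, was not called (−0.12, SE 0.09, edgeR adjusted p = 0.254). Psmd12 measured 81.9, 75.2 and 92.0 CPM in dox libraries, against 123, 120.3 and 128 CPM in untreated libraries. Its log2 fold change of −0.58 (SE 0.08, edgeR adjusted p = 0.000397) was the deepest among the 31, and its interval, −0.76 to −0.39, lies below their median, as does that of Psmb2. Psmd14, the enzyme that cuts the ubiquitin chain off the substrate, changed by −0.41 (SE 0.09, adjusted p = 0.00463), and Psmd3, Psmd6, Psmd7, Psmd11 and Psmd13 changed by −0.31 to −0.42. Psmd8 was the exception among the 8 members, with 202, 180.5 and 217 CPM in dox libraries, against 197, 179 and 181 CPM in untreated ones. The groups overlapped, and the log2 fold change of 0.11 (95% interval −0.08 to 0.29, adjusted p = 0.294) again excluded the median of its neighbours. Relative to the mean of the other 7 lid subunits per kilobase, Psmd8 stood at 2.08, 2.04 and 2.10 in dox libraries, against 1.55, 1.43 and 1.42 in untreated libraries.

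**Figure D2:**
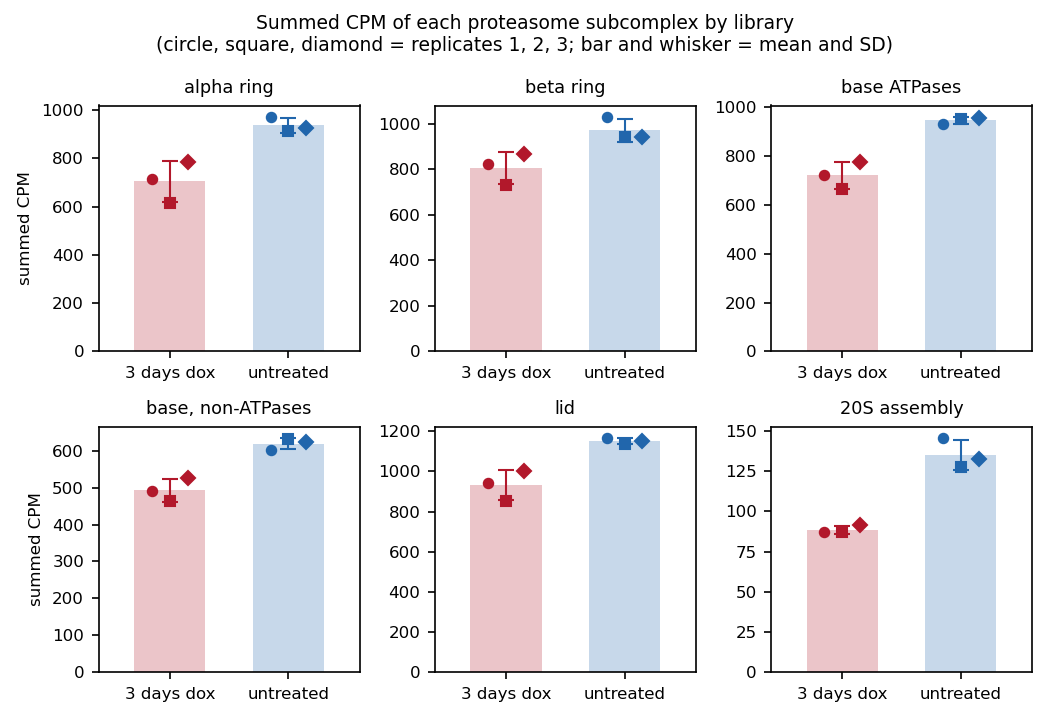
Summed CPM (y axis) of 5 subcomplexes of the 26S proteasome and of the 20S assembly chaperones in each library, with the mean and SD of 3 libraries as bar and whisker. In each panel the 3 dox libraries lie below the 3 untreated ones, and for the 20S and 19S groups dox replicate 2 is lowest and dox replicate 3 highest.

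The barrel and the cap were lower by a similar amount. The 14 alpha and beta subunits together summed to 1538, 1345 and 1653 CPM in dox libraries, against 2001, 1857 and 1869 CPM in untreated libraries. The 17 cap subunits summed to 2152, 1982 and 2300.3 CPM in dox libraries, against 2696, 2714 and 2729.8 CPM in untreated ones. Both sums were 0.79 times the untreated mean. Per kilobase, the ratio of the mean cap level to the mean barrel level was 0.672, 0.705 and 0.669 in dox libraries, against 0.642, 0.693 and 0.696 in untreated libraries, so the groups overlapped. The mean alpha level over the mean beta level was 0.798, 0.769 and 0.827 in dox libraries, against 0.857, 0.875 and 0.894 in untreated ones, which did not overlap. That beta mean includes Psmb1, which did not fall (190 CPM per kilobase after dox, 188 untreated). The ratio therefore does not show that the alpha ring fell further than the other beta subunits. Over the 31 subunits the SD of the log2 fold changes was 0.15, beside a median SE of 0.08, and the intervals of 26 held their common median.

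Dox libraries differed more among themselves than untreated ones. Dox replicate 2 was the lowest of the 3 dox libraries for 30 of the 31 subunits, and dox replicate 3 the highest for 28. The 31 summed to 3657 ± 315 CPM after dox and 4622 ± 65.8 CPM in untreated libraries (SD, n = 3 each). The summed neutrophil markers were highest in dox replicate 1 and lowest in dox replicate 2, while the summed subunits were highest in dox replicate 3 and lowest in dox replicate 2. Without dox replicate 2, 32 members were called lower, and without dox replicate 1, which held most neutrophil transcripts, 33. The part of neutrophil and macrophage transcripts in the results was not tested further. In bulk samples, fewer cells of a type and less RNA per cell cannot be told apart.

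Levels per length spread over a wide range, although each ring and each cap holds its own subunits in equal number. In CPM per kilobase of deposited gene length, the 31 ran from 17.9 to 190.5 with a median of 79.9 after dox, and from 23.6 to 251.8 with a median of 107 in untreated libraries. Psma6, Psmb4, Psma7 and Psmb1 were the top 4 in untreated libraries, with 252, 214, 213 and 188 CPM per kilobase. Psmd11, Psma3 and Psma5 were lowest there, at 33.4, 25.4 and 23.6 CPM per kilobase, and remained the lowest 3 after dox at 27.0, 21.8 and 17.9.

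**Figure D3:**
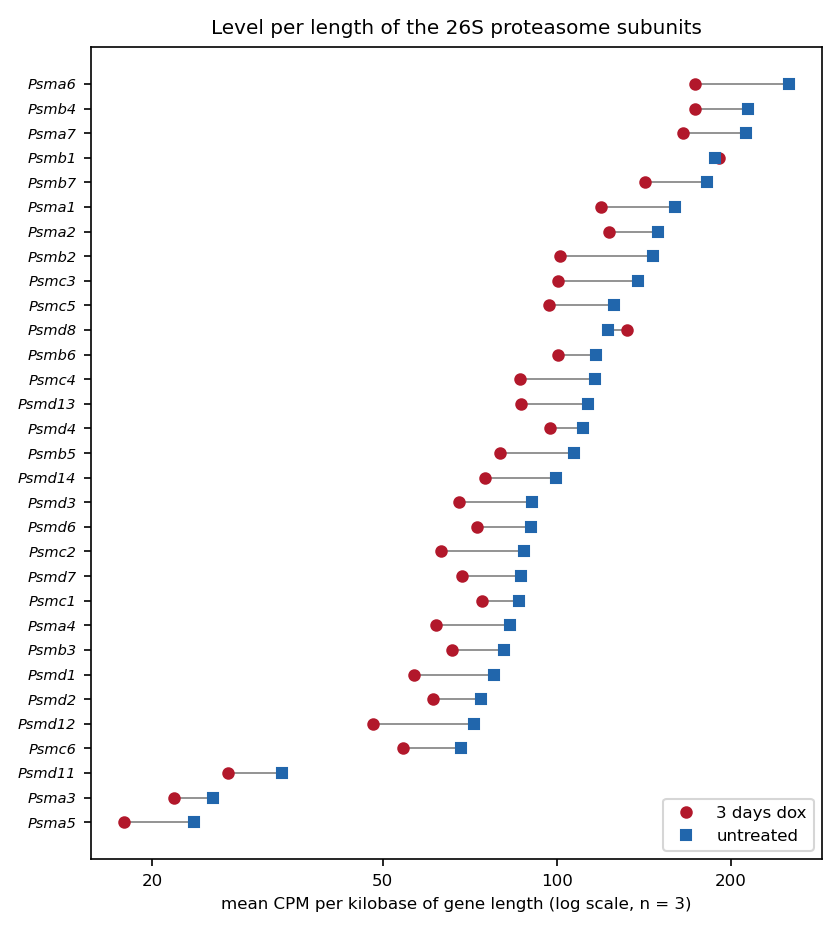
Mean level per kilobase of gene length (log axis) of the 31 standard subunits after 3 days of dox (circles) and in untreated mice (squares). The dox mean lies left of the untreated mean for 29 subunits, and right of it for Psmb1 and Psmd8.

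Near-identical copies bear on some of these levels. Of the 46 members, 11 shared over 10% of their 50-base words with a transcript of another gene in GENCODE M21, mostly processed pseudogenes. For Psma5 the share was 54.5%, and its annotated pseudogene Psma5-ps (Entrez Gene 666974) held more counts than the gene: 58.1, 51.9 and 61.1 CPM in dox libraries, against 78.6, 75.3 and 72.1 CPM in untreated ones. The pseudogene row changed by −0.40 (SE 0.08), as did Psma5 itself (−0.40, SE 0.11), so reads of this subunit may be divided between the rows. Psmb5 (57.1%), Psmb3 (55.8%), Psmd2 (26.4%), Psma4 (25.6%), Psma3 (22.0%), Psmc1 (17.6%) and Psmd11 (14.0%) were the other standard subunits over 10%. The closest copies of these 7 had no matched row in the table, and how reads shared with them were counted is not given in the sources used, so their levels are uncertain. Outside the standard subunits, Psme2 (59.3%), Psmg3 (22.7%, with the protein-coding gene Gm26938) and Psme1 (14.1%) were over 10%. The closest copies of Psme2, Psmg3 and Psme1 had no matched row either. Of the 18 standard subunits that shared under 1%, 17 fell, with a median log2 fold change of −0.38. Strand was not stated for the counting. Psmc3ip and Psmd9 overlap exons on the other strand, of Mlx and Gm26745, over 21.2% and 25.5% of their exonic bases. Among standard subunits such overlap was largest for Psmb7 (11.8%, Nek6), Psmd13 (10.1%, Sirt3) and Psmc3 (8.25%, Slc39a13).

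The 4 chaperones of the 20S core all fell, with a median of −0.61, beside −0.36 for the 31 standard subunits. These proteins work in pairs to set up the alpha ring. Psmg1 measured 18.4, 17.7 and 22.3 CPM in dox libraries, against 31.9, 31.8 and 32.8 CPM in untreated libraries. Psmg2, its partner, measured 25.2, 28.1 and 26.7 CPM in dox libraries, against 48.6, 42.3 and 46.6 CPM in untreated ones. Psmg2 changed by −0.78 (SE 0.08, edgeR adjusted p = 6.93e-05) and Psmg1 by −0.72 (SE 0.10, adjusted p = 0.000322), and neither interval reached the median of the standard subunits. The other pair fell as well. Psmg3 measured 22.0, 21.9 and 22.3 CPM in dox libraries, against 35.2, 29.2 and 28.4 CPM in untreated libraries (−0.49, SE 0.10, adjusted p = 0.00257). Psmg4 measured 21.3, 19.3 and 20.2 CPM in dox libraries, against 29.7, 24.1 and 24.6 CPM in untreated ones (−0.37, SE 0.10, adjusted p = 0.0154). Per kilobase, the mean of the 4 over the mean of the 20S subunits was 0.242, 0.272 and 0.233 in dox libraries, against 0.301, 0.281 and 0.289 in untreated libraries.

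Of the 3 chaperones of the base 1 was called, and the median was −0.22. Psmd5 fell, with 54.6, 51.7 and 57.6 CPM in dox libraries, against 71.6, 68.5 and 64.0 CPM in untreated libraries (−0.32, SE 0.08, edgeR adjusted p = 0.00705). Psmd9 measured 29.7, 25.7 and 28.0 CPM in dox libraries, against 33.2, 34.1 and 29.6 CPM in untreated ones, with overlapping groups (−0.22, SE 0.09, adjusted p = 0.0691, and 0.0465 without untreated replicate 3). Psmd10, also known as gankyrin, measured 37.7, 36.1 and 44.3 CPM in dox libraries, against 36.8, 38.6 and 38.5 CPM in untreated ones. Its interval of −0.15 to 0.26 around 0.05 excluded the median of the subunits it helps to assemble.

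Of the 4 genes for activators that can replace the cap, 1 rose, 2 fell and 1 was not called. Psme4, which encodes PA200, an activator known for nuclear roles including histone breakdown, rose by 41.0%. It measured 369, 366 and 367 CPM in dox libraries, against 293, 258 and 231 CPM in untreated libraries. All dox libraries lay above all untreated ones, and the log2 fold change was 0.50 (SE 0.09, edgeR adjusted p = 0.00129). Psme3, which encodes the nuclear activator PA28 gamma, fell, with 216, 217 and 238 CPM in dox libraries, against 309.6, 309.7 and 318 CPM in untreated ones (−0.48, SE 0.07, adjusted p = 0.000314). The ratio of Psme4 to Psme3 per kilobase was thus 0.695, 0.685 and 0.626 in dox libraries, against 0.385, 0.339 and 0.295 in untreated libraries.

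Psme1 and Psme2 encode the subunits of the interferon-inducible activator PA28. Psme1 fell, with 142, 137 and 140.3 CPM in dox libraries, against 177, 188 and 196 CPM in untreated libraries (−0.42, SE 0.06, edgeR adjusted p = 0.000595). Psme2 measured 13.3, 10.1 and 14.9 CPM in dox libraries, against 14.5, 14.3 and 15.3 CPM in untreated ones, and was not called (−0.20, SE 0.15). Its row is uncertain, since 59.3% of its words are shared with the near-identical gene Psme2b, which was not analysed here. Of 12 interferon-response genes measured, 6 rose (among them Oas2, Mx2, Mx1, Ifit3 and Tap1), 1 fell (Ifit2) and 5 were not called, with a median of 0.58. The shares over all genes tested were 27.0% higher and 26.6% lower. Oas2 measured 91.2, 51.1 and 54.5 CPM in dox libraries, against 21.2, 21.7 and 24.8 CPM in untreated ones, and Ifit2 measured 26.5, 24.4 and 25.9 CPM in dox libraries, against 37.8, 42.0 and 44.2 CPM in untreated ones. The calls of 3 of these genes were lost without single libraries: Mx1 without dox replicate 1 or untreated replicate 2 (edgeR adjusted p = 0.0669 and 0.076), Ifit3 without any library but dox replicate 2 (0.0559 to 0.208), and Tap1 without any library but dox replicate 3 (0.0674 to 0.163). Ifit3 was also not called with DESeq2 (adjusted p = 0.103) or limma voom (0.0888). Tap1 was not called with no low-count filter (edgeR adjusted p = 0.104).

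**Figure D4:**
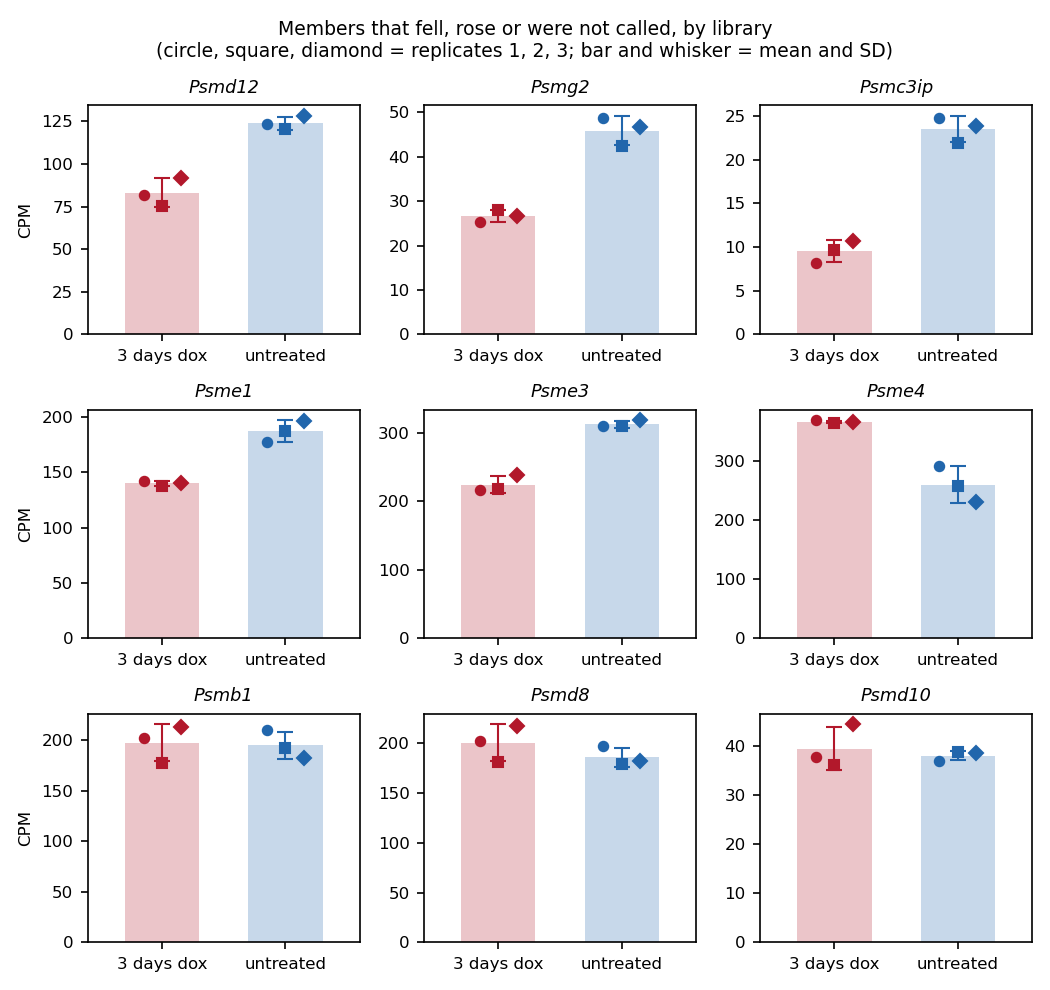
CPM in each library (y axis) of 9 members after 3 days of dox and in untreated mice, with the mean and SD of 3 libraries as bar and whisker. Psmd12, Psmg2, Psmc3ip, Psme1 and Psme3 lie lower in all dox libraries, Psme4 lies higher at about 367 CPM, and Psmb1, Psmd8 and Psmd10 overlap.

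The largest change under the name stem was not in a proteasome gene. Psmc3ip encodes Hop2, a partner of the strand-exchange proteins of homologous recombination. It measured 8.23, 9.68 and 10.7 CPM in dox libraries, against 24.7, 21.9 and 23.9 CPM in untreated libraries (−1.30, SE 0.12, edgeR adjusted p = 3.54e-05). Psme3ip1, which encodes a protein that binds PA28 gamma, measured 74.8, 74.2 and 69.0 CPM in dox libraries, against 79.5, 85.4 and 81.4 CPM in untreated ones (−0.18, SE 0.07, adjusted p = 0.0585). The tissue-specific subunits Psma8, of the testis, and Psmb11, of the thymus cortex, were not tested: Psma8 had 0 counts in all dox libraries together and 1 in all untreated libraries together, and Psmb11 had 1 and 2.

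The 3 immunoproteasome genes, whose products replace the catalytic subunits in lymphoid cells, were measured beside them. Psmb8 measured 253, 229.6 and 248 CPM in dox libraries, against 262, 242 and 253 CPM in untreated libraries, and was not called (−0.05, SE 0.07). Psmb9 measured 141, 126 and 128 CPM in dox libraries, against 176, 162 and 173 CPM in untreated ones, and fell by 22.7% (edgeR adjusted p = 0.00201). Psmb10 measured 105, 94.0 and 93.7 CPM in dox libraries, against 123, 110.4 and 109 CPM in untreated ones. It fell by 14.7% (edgeR adjusted p = 0.0335, but 0.0788 without dox replicate 2, 0.0858 without dox replicate 3, and 0.105, 0.0572 and 0.0508 without untreated replicates 1, 2 and 3). Psmb10 was not called under upper-quartile scaling either (edgeR adjusted p = 0.0583). Per kilobase, Psmb8 over its standard counterpart Psmb5 was 2.60, 2.54 and 2.34 in dox libraries, against 1.92, 1.94 and 1.92 in untreated libraries. The level of Psmb5 is uncertain, as 57.1% of its words are shared with other genes. Psmb9 over Psmb6 was lower on average, at 1.64, 1.79 and 1.48 in dox libraries, against 1.79, 1.82 and 1.8 in untreated ones. Dox replicate 2 and untreated replicate 1 stood nearly level in that ratio. Psmb10 over Psmb7 overlapped, at 0.569, 0.607 and 0.463 in dox libraries, against 0.496, 0.498 and 0.489 in untreated ones.

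Other genes of the particle and its surroundings were counted in lists. Of 13 proteasome genes outside the name stems, 6 fell (Txnl1, Uchl5, Usp14, Adrm1, Fbxo7 and Pomp), 1 rose (Ublcp1) and 6 were not called, with a median of −0.17. Over all genes tested, 26.6% were called lower and 27.0% higher. Txnl1, a thioredoxin-like protein bound to the cap, measured 93.3, 93.6 and 112 CPM in dox libraries, against 156, 156 and 154 CPM in untreated libraries (−0.64, SE 0.08, edgeR adjusted p = 0.00022). Uchl5 measured 60.2, 55.2 and 69.6 CPM in dox libraries, against 92.8, 94.3 and 89.9 CPM in untreated ones. The cap's deubiquitinases Uchl5 (−0.58, SE 0.09) and Usp14 (−0.55, SE 0.09) and the ubiquitin receptor Adrm1 (−0.27, SE 0.08) fell as well. Pomp, the chaperone of the beta ring, measured 92.4, 80.1 and 97.7 CPM in dox libraries, against 112, 102 and 105 CPM in untreated ones, and its call (adjusted p = 0.0411) was lost without each library in turn except dox replicate 3 (0.0652, 0.117, 0.116, 0.063 and 0.0853). Upper-quartile scaling also removed the call of Pomp (edgeR adjusted p = 0.063). The call of Fbxo7, a ubiquitin ligase subunit, was lost without untreated replicate 2 (0.0606). Ublcp1, a phosphatase of the nuclear proteasome, rose, with 23.4, 24.6 and 25.9 CPM in dox libraries, against 16.3, 13.4 and 10.5 CPM in untreated ones (0.88, SE 0.15, adjusted p = 0.000926).

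Among genes that regulate proteasome transcription, Nfe2l1, which encodes the factor that raises subunit genes when the particle is impaired, was not called. It measured 111, 99.1 and 104 CPM in dox libraries, against 87.4, 92.7 and 96.7 CPM in untreated libraries (0.18, SE 0.07, edgeR adjusted p = 0.0615, and 0.0404 without dox replicate 2). All dox libraries of Nfe2l1 lay above all untreated ones, and it was called higher under upper-quartile scaling (edgeR adjusted p = 0.0343). Of 9 such genes tested, Ngly1 and Bach1 rose, Myc and Mafk fell, and 5 were not called, beside 27.0% higher and 26.6% lower among all genes, so neither count stands above the background. Myc measured 87.8, 116 and 90.1 CPM in dox libraries, against 289.6, 276 and 317 CPM in untreated ones (−1.59, SE 0.11, adjusted p = 1.03e-05). Ngly1, the enzyme that processes Nfe2l1, changed by 0.29 (SE 0.09), and its call (adjusted p = 0.0244) was lost without dox replicate 3 (0.0723) or untreated replicate 1, 2 or 3 (0.051, 0.0788 and 0.0784). Bach1, a repressor at antioxidant elements, changed by 0.25 (SE 0.08), and its call (0.0276) was lost without dox replicate 2 or 3 (0.063 and 0.0803) or untreated replicate 1 or 2 (0.0896 and 0.0796). Bach1 was also not called with no low-count filter (edgeR adjusted p = 0.0702) or with DESeq2 (adjusted p = 0.0504). Mafk, a partner of these factors, changed by −0.27 (SE 0.09), and its call (0.0311) was lost without dox replicate 1 or 3 (0.0518 and 0.0857) or untreated replicate 1 or 3 (0.0927 and 0.0818). Upper-quartile scaling also removed the call of Mafk (edgeR adjusted p = 0.0551).

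Upstream of the particle, 4 of 5 shuttle receptors, which carry ubiquitinated proteins to it, fell, among them Ubqln4, Ubqln2 and Rad23b, with a median of −0.51. Over all genes tested, 26.6% were called lower. Ubqln4 measured 73.8, 82.5 and 79.0 CPM in dox libraries, against 118, 124 and 123 CPM in untreated libraries (−0.63, SE 0.07, edgeR adjusted p = 7.75e-05). Ubqln2 measured 48.0, 48.7 and 50.3 CPM in dox libraries, against 74.7, 77.9 and 71.6 CPM in untreated ones, and Rad23b measured 210.1, 207 and 244 CPM in dox libraries, against 302, 319 and 319.6 CPM in untreated ones. The fifth, Ubqln1, was not called (−0.08, SE 0.06). Of 6 genes for ubiquitin and its activating enzymes, 3 fell, beside the same 26.6% of all genes. Ubb, the most abundant of the 6, measured 1409, 1331 and 1429 CPM in dox libraries, against 1817, 1979 and 1948 CPM in untreated ones. Uba1, a ubiquitin-activating enzyme, was also among them. The call of Uba1 was lost without dox replicate 2 (edgeR adjusted p = 0.0703) or untreated replicate 2 or 3 (0.0915 and 0.102).

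The p97 unfoldase pulls proteins out of complexes ahead of the proteasome. Vcp, its gene, was not called (−0.05, 95% interval −0.21 to 0.11), and of 11 genes for p97 and its cofactors 3 fell (Nsfl1c, Nploc4 and Plaa), 1 rose (Ubxn7, 0.54, SE 0.09) and 7 were not called, beside 26.6% lower and 27.0% higher among all genes, so the share that fell is near the background. The calls of Nploc4 and Plaa were lost without single libraries: Nploc4 without dox replicate 3 (edgeR adjusted p = 0.0512) or untreated replicate 2 or 3 (0.0953 and 0.073), and Plaa without any library but dox replicate 3 (0.0537 to 0.104). Downstream, 5 of 10 cytosolic peptidases, which trim the peptides the proteasome releases, fell (Lap3, Nln, Thop1, Blmh and Dpp3), beside 26.6% of all genes. Lap3, a leucine aminopeptidase, measured 39.7, 38.9 and 43.0 CPM in dox libraries, against 80.2, 78.3 and 79.5 CPM in untreated ones (−0.97, SE 0.07, adjusted p = 1.16e-05). The call of Blmh was lost without dox replicate 1 or 2 or untreated replicate 2 or 3 (0.0532 to 0.0746), and that of Dpp3 without any 1 of the 6 libraries (0.0638 to 0.19). Dpp3 was also not called with upper-quartile scaling (edgeR adjusted p = 0.0878), another low-count filter (0.0528) or the replicate number as a block (0.062). Nor was Dpp3 called with DESeq2 (adjusted p = 0.0568) or limma voom (adjusted p = 0.0536).

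The CCT chaperonin, which folds actin and tubulin, served as another large complex of fixed composition. All 8 of its genes fell, with a median of −0.52, with values of −0.77 for Cct6a, −0.68 for Cct8 and −0.67 for Cct3 at the low end and −0.23 for Cct4 at the other. Among all genes tested, 26.6% were called lower. Cct6a measured 224, 230.3 and 266 CPM in dox libraries, against 411, 401 and 417 CPM in untreated libraries. The call of Cct4 was lost without dox replicate 1 (edgeR adjusted p = 0.0626) or untreated replicate 2 or 3 (0.0576 and 0.0583). The 31 standard proteasome subunits had a median of −0.36, and no test of the difference between the lists was made.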

How the data were processed

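The authors deposited whole-number read counts per gene, with Entrez Gene identifiers and a gene length, for 6 libraries. The submitters' processing notes name CASAVA 1.8.2, featureCounts and build mm9. For the aligner, the annotation and strandedness, the authors' settings were not given in the sources used. The 6 per-sample files held the same counts as the series table. Identifiers were matched to RefSeq symbols (24176 of 26286). Genes were filtered with filterByExpr (minimum count 10), which kept 12275 genes and 99.93% of counts. Counts were scaled by TMM and tested with edgeR 4.0.16 (quasi-likelihood F-test, R 4.3.3, no covariates), adjusted over all genes tested. SE is the absolute log2 fold change divided by the square root of F; intervals are 95%. Members, gene lists and motifs were chosen with earlier results of these data known, so their counts are descriptions. Genes with values in every library are, by rule, the smallest p and the smallest change in each subcomplex, the catalytic subunits, all chaperones and activators, and, for further lists, the genes of smallest p; the text gives some of these by fold change only, and other names were added with values known. DESeq2 1.42.0 and limma 3.58.1 (voom) served as alternatives. The ratios per kilobase and the comparison of 50-base words were chosen once values were known. Each fitting step was tested on simulated data. Paaf1 was not matched and is not reported here. Some genes of the further lists are not reported here.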

Additional observations from a re-analysis of the deposited data

How the results depend on the processing

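The number of members called lower was 34 to 38 under other scalings (upper quartile, total counts, DESeq2's size factors), other filters, DESeq2 and limma voom, and 29 to 36 when each library was left out in turn; 1 member was called higher throughout. With a minimum change of 1.5-fold, 3 members were lower and 0 higher (edgeR; at adjusted p alone 35 and 1), beside 1445 lower and 1785 higher over all genes. The log2 fold change of Pax5 ran from 0.92 to 1.31 with 1 library left out. No called member reversed under any of these. With the replicate number as a block, 36 members were lower and 1 higher, Psmb6 being called (adjusted p = 0.0236), and all genes gave 3356 lower and 3434 higher. Deviations of same-numbered libraries from their group means correlated at 0.305, 0.288 and −0.0373. Those of differently numbered libraries correlated at −0.336 to 0.0248. With 3 libraries per group, these values cannot tell whether the numbers pair the samples. Without a low-count filter Psma3, Psmb6 and Psme3ip1 were called lower too (0.0477, 0.04 and 0.0445), and Psme3ip1 also with total counts alone (0.0477). Psma8 and Psmb11 had too few counts to be tested at this depth.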
